A study of Mus musculus with 8 samples.

Results

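The mRNA levels of 10 genes that encode RNA-binding proteins of neurons were examined in mouse sympathetic ganglia with and without full function of *Isl1*, a LIM homeodomain transcription factor. The genes were taken by name, with earlier results of these data known. They were *Elavl1*, *Elavl2*, *Elavl3*, *Elavl4*, *Nova1*, *Nova2*, *Ptbp1*, *Ptbp2*, *Rbfox1*, and *Rbfox2*. All 10 were listed among the 13506 genes of the E11.5 table and the 13413 genes of the E14.5 table. At E11.5, *Isl1* CKO embryos (*Wnt1-Cre;Isl1 f/f*) were compared with control embryos (*Wnt1-Cre;Isl1+/+*), and both groups carried the Cre and a *Rosa26-tdTomato* reporter. *Wnt1-Cre* acts in the neural crest lineage, which gives rise to sympathetic and sensory neurons, glia, and parts of the head mesenchyme, and ganglia were freed of nonfluorescent tissue under a fluorescence microscope. At E14.5, *Isl1* hypomorphic embryos (*Isl1 f-neo/f-neo*), in which *Isl1* expression is lowered throughout the embryo, were compared with wildtype embryos, and no reporter was stated for these groups. RNA was pooled from the ganglia of 10 or more embryos for a library, and 2 libraries were made per genotype. The deposited tables combine both libraries into 1 value per gene and genotype, given as fragments per unit of transcript length and of sequencing depth (FPKM), so the spread between libraries and the depth are unknown, and no test could be made. A difference is therefore given as a log2 ratio of FPKM with 0.1 added to each value, and a difference of 1.5-fold or more is called lower or higher.

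*Elavl* genes encode the Hu proteins, which bind AU-rich and U-rich stretches of mRNA and alter its stability, translation, and splicing. HuR, from *Elavl1*, is made in most cells, whereas HuB, HuC, and HuD, from *Elavl2*, *Elavl3*, and *Elavl4*, are made chiefly in neurons and are among the earliest markers of newly formed sympathetic neurons. *Ptbp1* encodes the polypyrimidine tract binding protein of progenitors and nonneuronal cells, and its neuronal relative *Ptbp2* takes its place as neurons form. Nova and Rbfox proteins bind YCAY clusters and UGCAUG motifs, respectively, and direct many neuronal exons.

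The link between both *Ptbp* genes runs through an exon of 34 bases, whose length is not a multiple of the codon length. When Ptbp1 protein causes the exon of *Ptbp2* to be skipped, the reading frame shifts and the mRNA is degraded, which makes this exon the best known switch in the family. Both exons are shown because the ratio of *Ptbp2* to *Ptbp1* is reported below. They are read from the mm9 genome in the direction of transcription, with the exon in capitals, the 60 bases before it, and the 20 bases after it.
*Ptbp1*, chr10:79324759-79324792, plus strand, exon only: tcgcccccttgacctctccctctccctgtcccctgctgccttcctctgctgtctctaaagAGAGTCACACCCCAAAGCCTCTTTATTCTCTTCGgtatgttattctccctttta
*Ptbp2*, chr3:119427530-119427563, minus strand, exon only: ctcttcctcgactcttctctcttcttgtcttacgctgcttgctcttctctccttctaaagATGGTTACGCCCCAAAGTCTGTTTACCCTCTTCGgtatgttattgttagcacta
The coordinates are those of the exon. The exons were identical at 26 of 34 positions. The letters TCTT, a motif of polypyrimidine tract binding, occurred at 6 places in the 100 bases before the *Ptbp2* exon and at 1 place before the *Ptbp1* exon, counted on the transcribed strand with overlaps allowed. Of 90146 such windows before exons of protein-coding genes on the chromosomes that hold the 10 genes, 62.7% held TCTT at least 1 time, and 0.227% held it at 6 or more places. The letters TCTCT, which can overlap TCTT, occurred at 3 places before the *Ptbp2* exon and 1 place before the *Ptbp1* exon, and 2.44% of the windows held 3 or more. The annotation placed the exon in 1 of 1 transcript of *Ptbp2* and in 5 of 18 transcripts of *Ptbp1*. FPKM values cover whole genes, so inclusion of either exon was not measured.

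*Isl1* itself was listed at 133 FPKM in control and 40.01 FPKM in CKO ganglia at E11.5, a log2 ratio of -1.73, and at 162 FPKM in wildtype and 83.1 FPKM in hypomorphic ganglia at E14.5, a log2 ratio of -0.96. The direction matched the genotype labels at both stages. The tissue label was checked with 14 sympathetic genes, all of which were listed, and *Dbh*, which encodes the enzyme that makes noradrenaline, was at 543, 594, 608, and 568 FPKM in E11.5 control, E11.5 CKO, E14.5 wildtype, and E14.5 hypomorphic ganglia. *Hand2*, a sympathetic transcription factor, was at 298, 193, 474, and 492 FPKM. Globin and other erythroid genes took 2.29% of the summed FPKM in E11.5 control and 11.2% in E11.5 CKO ganglia, against 1.26% and 1.55% in E14.5 wildtype and hypomorphic ganglia. At E11.5 these shares do not cover like sets of genes. The globin gene *Hbb-y* held 7552 of the 10886 erythroid FPKM in control ganglia and was listed at 0 in CKO ganglia.

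All 10 genes were listed above 3 FPKM in every column. In E11.5 control ganglia *Elavl2* (124 FPKM), *Elavl4* (115 FPKM), *Ptbp2* (113 FPKM), and *Ptbp1* (102 FPKM) were at similar levels, followed by *Elavl3*, *Rbfox2*, *Elavl1*, and *Rbfox1*, and *Nova1* (8.87 FPKM) and *Nova2* (6.16 FPKM) were lowest. The order was different in CKO ganglia, where *Ptbp1* (132 FPKM) led and *Elavl3* (16.8 FPKM) stood eighth. In E14.5 wildtype ganglia *Elavl3* (131 FPKM) led, and *Ptbp1* (45.6 FPKM) stood seventh. Whether neighbours in these orders differ beyond the spread between libraries cannot be said from 1 value each.

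**Figure D1:**
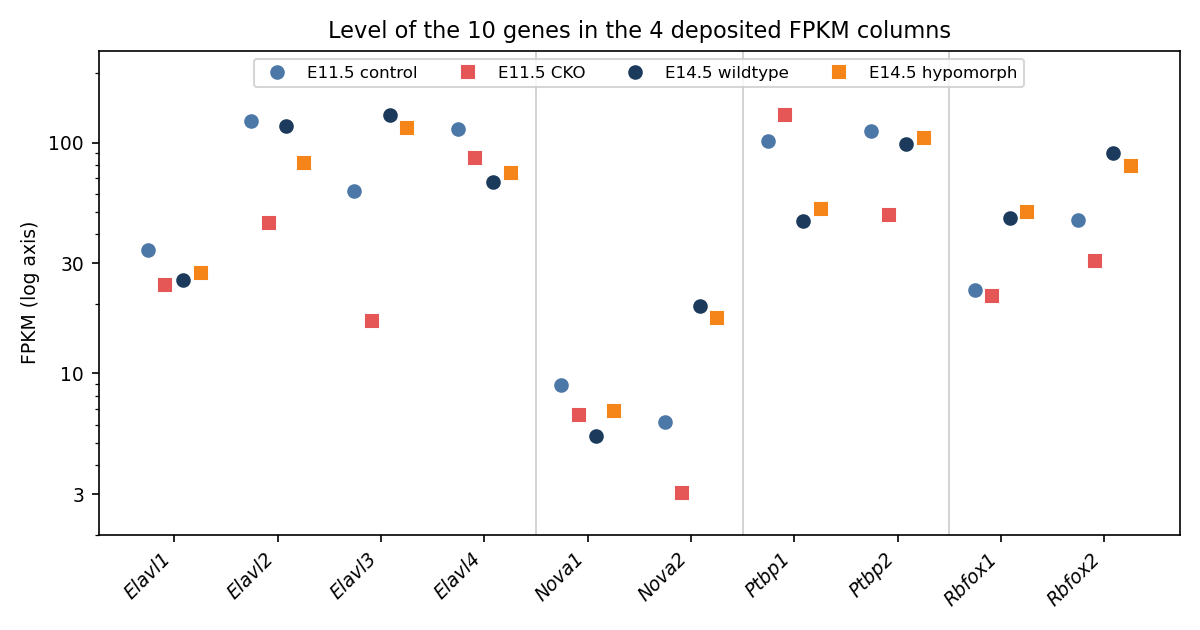
FPKM of the 10 genes (log axis), with 1 point for each of the 4 deposited columns, each of which combines 2 libraries. *Elavl2*, *Elavl3*, and *Ptbp2* are far lower in E11.5 CKO than in E11.5 control ganglia. At E14.5 the circle and square of each gene lie less than 1.5-fold apart, and farthest for *Elavl2* (118 and 81.6 FPKM).

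The first comparison asked which of these genes depended on *Isl1* at E11.5, when sympathetic neurons begin to differentiate. Of the 10 genes, 5 were lower in CKO ganglia (*Elavl3*, *Elavl2*, *Ptbp2*, *Nova2*, and *Rbfox2*) and 0 were higher. Over all 13506 genes 12.9% were lower and 18.9% were higher by the same rule. The median log2 ratio of the 10 genes was -0.55, beside 0.05 for all genes, and 9 of 10 values were below 0. In bulk ganglia, fewer cells of a type and less RNA per cell cannot be told apart.

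*Elavl3*, which encodes HuC and lies at chr9:21819449-21856467 on the minus strand of mm9, was at 61.6 FPKM in control and 16.8 FPKM in CKO ganglia. It was 3.65-fold lower, and 1.31% of all genes had a lower log2 ratio. *Elavl2*, which encodes HuB (chr4:90917454-91066675, minus strand), was at 124 and 44.8 FPKM, 2.76-fold lower. *Elavl4*, which encodes HuD (chr4:109876327-110024514, minus strand), was at 115 and 86.0 FPKM, a log2 ratio of -0.42 that did not reach 1.5-fold. *Elavl1* (chr8:4284782-4325100, minus strand), the ubiquitous relative, was at 34.2 and 24.1 FPKM, which is 1.42-fold lower and just short of the threshold. The 3 neuronal *Elavl* genes together were at 300.3 FPKM in control and 147.6 FPKM in CKO ganglia, or 49.1% of the control level.

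The losses were uneven within the family. *Elavl4* made up 34.3% of the summed *Elavl* FPKM in control and 50.1% in CKO ganglia, whereas *Elavl2* went from 37.1% to 26.1% and *Elavl3* from 18.4% to 9.80%. The ratio of *Elavl3* to *Elavl4* was 0.537 in control and 0.196 in CKO ganglia, 2.75 times lower. Such a ratio is taken within 1 column and does not depend on how the columns were scaled. The coding sequences of the 3 neuronal genes were 76.3% to 78.4% identical in pairwise alignment, and no stretch of 90 bases, the read length, in the longest transcript of *Elavl1*, *Elavl2*, *Elavl3*, or *Elavl4* occurred elsewhere in the mm9 genome.

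The *Ptbp* genes went in opposite directions. *Ptbp2* (chr3:119421660-119486306, minus strand) was at 113 FPKM in control and 48.5 FPKM in CKO ganglia, 2.32-fold lower. *Ptbp1* (chr10:79317172-79327516, plus strand) was at 102 and 132 FPKM, a log2 ratio of 0.37 that did not reach 1.5-fold, and 71.6% of all genes had a lower ratio. *Ptbp2* was therefore above *Ptbp1* in control ganglia, at a ratio of 1.11, and below it in CKO ganglia, at a ratio of 0.368. The change of this ratio was 3.02 times. A total of 95 of 3080 stretches of 90 bases in *Ptbp1* (3.08%) occurred outside its locus in the genome, and none of those in *Ptbp2* did. Within its locus, 58 of the *Ptbp1* stretches (1.88%) were shared with a transcript of *BC005764*, which overlaps *Ptbp1* on the opposite strand. The library kit was not stated to keep the strand, so reads from overlapping genes cannot be told apart.

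*Nova2* (chr7:19510698-19551031, plus strand) was at 6.16 FPKM in control and 3.04 FPKM in CKO ganglia, 1.99-fold lower. *Nova1* (chr12:47795504-47919762, minus strand) was at 8.87 and 6.62 FPKM, a log2 ratio of -0.42. *Rbfox2* (chr15:76909420-77137483, minus strand), which is made in many tissues, was at 46.2 and 30.6 FPKM. It was 1.51-fold lower, just past the threshold. *Rbfox1* (chr16:6809315-7412572, plus strand), the neuron- and muscle-enriched relative, was at 22.9 and 21.7 FPKM, a log2 ratio of -0.08. Of each pair, *Nova2* and *Rbfox2* were thus called lower, and *Nova1* and *Rbfox1* were not.

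**Figure D2:**
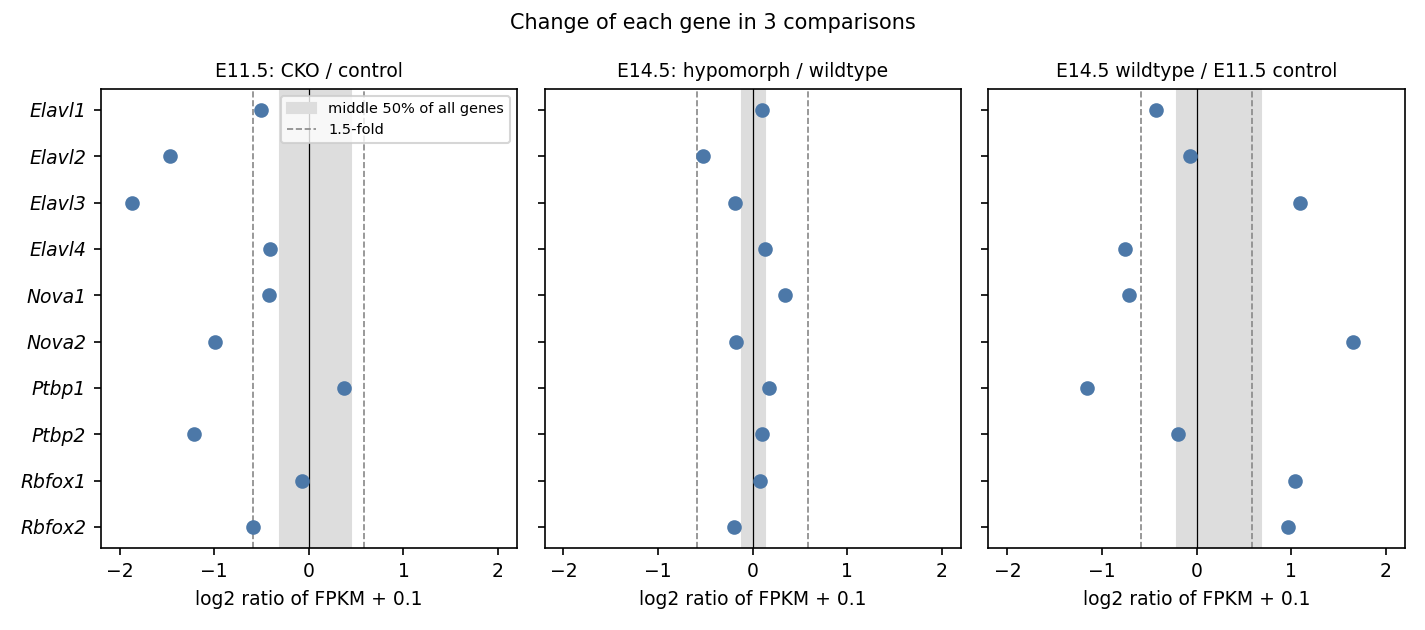
Log2 ratio of FPKM + 0.1 for the 10 genes in the 3 comparisons, with the middle 50% of all genes in grey and 1.5-fold as dashed lines. At E11.5 *Elavl3* (-1.87), *Elavl2* (-1.47), *Ptbp2* (-1.22), *Nova2* (-0.99), and *Rbfox2* (-0.59) lie left of the lower line, and at E14.5 all 10 lie between the lines.

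Markers of several cell types moved with these results at E11.5. Of 26 pan-neuronal markers 8 were lower and 1 was higher in CKO ganglia. Their median was -0.27 on the log2 scale, and their summed level was 6034 FPKM in control and 4428 FPKM in CKO ganglia. Of 14 sympathetic genes 8 were lower and 0 were higher (median -0.67, sums of 2260 and 1658 FPKM). Crest and glial markers were higher for 10 of 11 genes (median 1.15, sums of 329 and 721 FPKM), and *Fabp7*, a glial fatty acid binding protein, was at 90.9 and 207.5 FPKM. Mesenchymal markers were higher for 7 of 11 genes (783.7 and 1332 FPKM in sum) and macrophage markers for 8 of the 8 listed (54.6 and 128 FPKM). Endothelial markers were higher for 2 of 9 (72.1 and 94.9 FPKM), or 22.2%, which is near the 18.9% of all genes that were higher. Sensory neuron markers were low throughout, with sums of 6.13 and 11.01 FPKM over 4 listed genes, of which 3 were higher (median 0.97). Erythroid genes were higher for 10 of 11 listed genes, and the exception, the globin gene *Hbb-y*, was listed at 7552 FPKM in control and at 0 in CKO ganglia. No listed marker of the crest and glial, mesenchymal, endothelial, macrophage, or sensory lists was at 0. The part of these shifts in the values of the 10 genes was not tested.

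The 4 genes with the lowest values, picked by these same values, were set beside the 26 pan-neuronal markers. *Elavl3* had a lower log2 ratio than all 26 markers, and for *Elavl2*, *Ptbp2*, and *Nova2* 3 of the 26 markers were lower. After the median of the markers was subtracted, the log2 ratios were -1.60 for *Elavl3*, -1.20 for *Elavl2*, -0.95 for *Ptbp2*, and -0.72 for *Nova2*. *Rbfox2* was at -0.32, *Elavl1* at -0.23, *Elavl4* and *Nova1* at -0.15, *Rbfox1* at 0.19, and *Ptbp1* at 0.64 on this scale. Without the subtraction, the 14 sympathetic genes ran from -3.69 to 0.13 (median -0.67), so *Elavl3* (-1.87) was not below all of them. The scale of the columns also moved the counts: rescaling without the erythroid genes shifted the median of all genes from 0.05 to -0.18, with 22.5% of genes then lower and 12.2% higher, and 8 of the 10 genes were then lower.

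The promoters of the 3 genes that were more than 2-fold lower are shown with each TAAT in capitals, on either strand, because these letters form the core that homeodomain proteins such as Isl1 bind. They are RefSeq sequences of the GRCm38.p6 table, from 250 bases before to 50 bases after the annotated start, each with 1 exact match in mm9, whose coordinates are given. RefSeq listed 6 starts for *Elavl2*, of which the most upstream is shown.
*Elavl3*, chr9:21856418-21856717, minus strand: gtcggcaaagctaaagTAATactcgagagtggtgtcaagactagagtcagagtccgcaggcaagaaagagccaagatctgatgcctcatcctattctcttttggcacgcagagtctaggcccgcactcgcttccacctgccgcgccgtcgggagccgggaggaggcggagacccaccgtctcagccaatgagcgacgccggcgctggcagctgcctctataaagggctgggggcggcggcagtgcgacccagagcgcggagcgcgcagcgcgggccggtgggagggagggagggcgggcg
*Elavl2*, chr4:91066626-91066925, minus strand: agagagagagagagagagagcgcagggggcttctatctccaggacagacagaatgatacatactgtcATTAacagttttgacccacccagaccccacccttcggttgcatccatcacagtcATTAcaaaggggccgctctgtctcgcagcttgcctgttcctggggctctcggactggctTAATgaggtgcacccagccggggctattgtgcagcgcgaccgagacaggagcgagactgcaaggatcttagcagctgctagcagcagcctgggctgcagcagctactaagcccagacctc
*Ptbp2*, chr3:119486257-119486556, minus strand: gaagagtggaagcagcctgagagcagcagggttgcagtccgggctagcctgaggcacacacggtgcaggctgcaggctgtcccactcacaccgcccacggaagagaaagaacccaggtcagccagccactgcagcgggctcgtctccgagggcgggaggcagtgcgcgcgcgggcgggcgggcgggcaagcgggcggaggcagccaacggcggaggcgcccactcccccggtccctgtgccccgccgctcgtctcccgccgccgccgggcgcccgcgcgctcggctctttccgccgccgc
TAAT occurred 1 time in the *Elavl3* promoter, 3 times in the *Elavl2* promoter shown, and 0 times in that of *Ptbp2*, and 57.9% of 32544 promoters of the same length held it at least 1 time. The other 5 promoters of *Elavl2* held it 0 times, as did that of *Nova2*, which was also called lower. Among genes not called lower, the promoters of *Elavl4* held it 0, 4, 4, and 2 times. Those of *Rbfox1* held it 0 and 3 times, that of *Nova1* 1 time, and those of *Elavl1* and *Ptbp1* 0 times. The longer motif CTAATG (7.33% of promoters) and CAGCACC (7.16%), which is part of the site of the repressor REST, were in none of the 18 promoters matched to 9 of the 10 genes. No promoter of *Rbfox2* was matched. A match of letters is a description of these windows and not a binding site.

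At E14.5 the same question was asked in ganglia with reduced *Isl1*. None of the 10 genes was 1.5-fold lower or higher, where 2.12% of 13413 genes were lower and 2.89% were higher. The median log2 ratio of the 10 genes was 0.09, beside 0.00 for all genes, and the middle 50% of all genes lay between -0.11 and 0.13. Because the alleles, the reporter, and the dissection differ between stages along with age, the difference between the stages was not tested.

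*Elavl2* had the lowest value, at 118 FPKM in wildtype and 81.6 FPKM in hypomorphic ganglia, a log2 ratio of -0.53, and 2.51% of all genes were lower. *Elavl3* was at 131 and 116 FPKM (-0.18), *Elavl4* at 67.7 and 73.9 FPKM (0.13), and *Elavl1* at 25.4 and 27.2 FPKM (0.10). The ratio of *Elavl2* to *Elavl4* was 1.74 in wildtype and 1.10 in hypomorphic ganglia, 1.58 times lower. At E11.5 it was 1.08 in control and 0.521 in CKO ganglia, 2.07 times lower.

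*Ptbp2* was at 98.2 and 105 FPKM and *Ptbp1* at 45.6 and 51.4 FPKM, so their ratio was 2.15 in wildtype and 2.04 in hypomorphic ganglia. *Nova1* had the highest log2 ratio of the 10 genes (0.34), at 5.38 and 6.85 FPKM, and *Nova2* was at 19.6 and 17.4 FPKM (-0.17). *Rbfox1* was at 47.3 and 49.9 FPKM (0.08) and *Rbfox2* at 90.5 and 78.8 FPKM (-0.20). The *Nova2* to *Nova1* ratio was 3.64 in wildtype and 2.53 in hypomorphic ganglia, and the *Rbfox2* to *Rbfox1* ratio was 1.91 and 1.58.

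Of the 26 pan-neuronal markers 1 was lower and 0 were higher (median -0.27), and summed levels were 13012 FPKM in wildtype and 11330 FPKM in hypomorphic ganglia. None of the 11 crest and glial markers, 11 mesenchymal markers, or 8 listed macrophage markers was called, and 1 of 9 endothelial markers was higher. The endothelial median was 0.47 at E14.5, with sums of 93.1 FPKM in wildtype and 131 FPKM in hypomorphic ganglia, beside a median of 0.45 at E11.5. Of 19 cell cycle genes 2 were higher, with a median of 0.51 and sums of 677 and 985 FPKM. Against the pan-neuronal median *Elavl2* was at -0.26, and the other 9 genes were between 0.07 and 0.61.

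**Figure D3:**
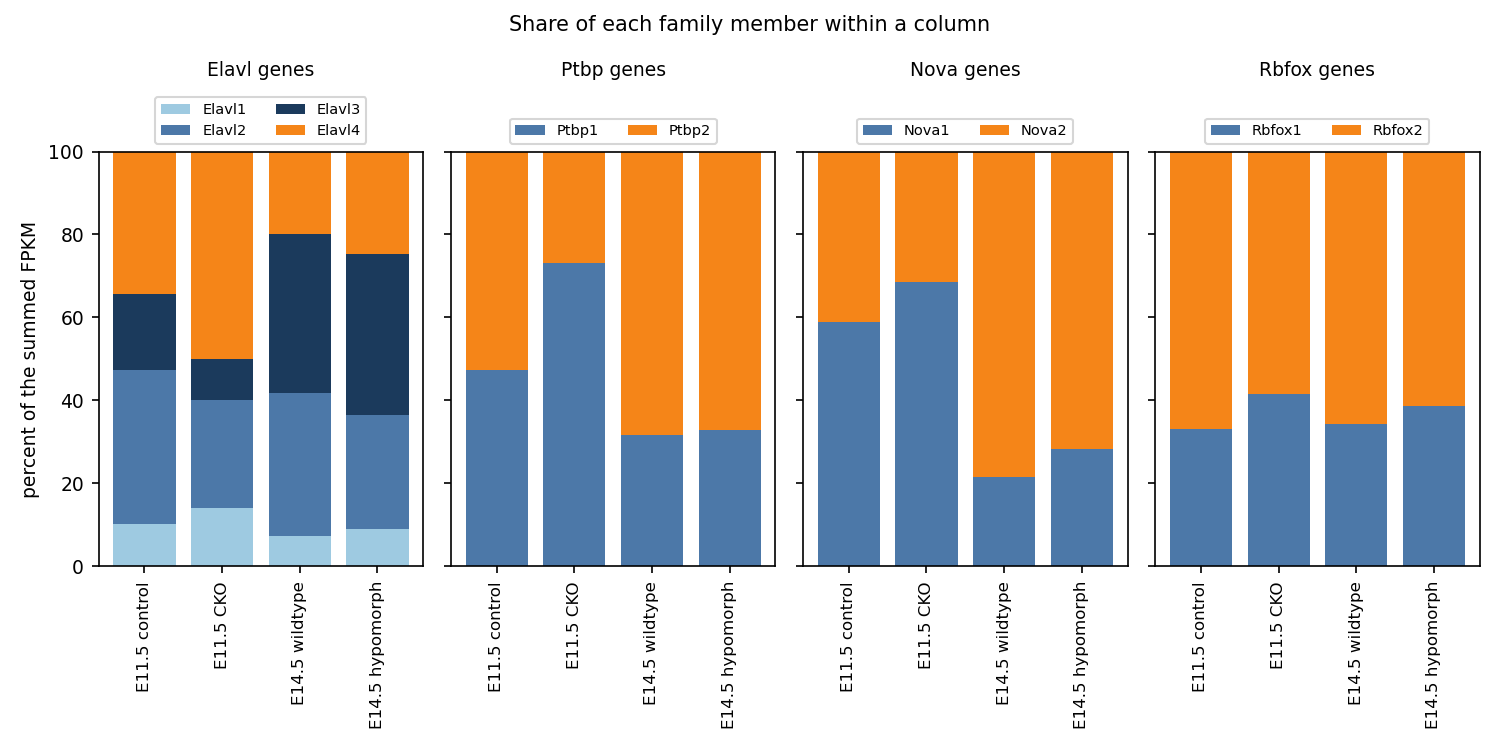
Share of each gene in the summed FPKM of its family (percent, stacked to 100), in the 4 columns. In E11.5 CKO ganglia *Elavl4* holds 50.1% of the *Elavl* sum and *Ptbp1* most of the *Ptbp* sum, and *Nova2* holds 41.0% of the *Nova* sum in E11.5 control and 78.5% in E14.5 wildtype ganglia.

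The change between E11.5 control and E14.5 wildtype ganglia was taken across 2 tables that were normalized separately, and both groups are also the controls of the comparisons above. Over the 12707 genes that both tables list, 12.7% were lower and 29.7% were higher at E14.5, and the median log2 ratio was 0.24. Of the 10 genes *Ptbp1*, *Elavl4*, and *Nova1* (3 of 10) were lower, and *Nova2*, *Elavl3*, *Rbfox1*, and *Rbfox2* (4 of 10) were higher. *Elavl1* (-0.43), *Ptbp2* (-0.20), and *Elavl2* (-0.07) were not called. Centring on the median of all genes changed the shares of all genes to 19.5% lower and 19.2% higher, and 4 of the 10 genes were then lower, with *Elavl1* added at -0.66. With centring on the core spliceosome genes *Elavl4* (-0.42) and *Nova1* (-0.37) were no longer called, and *Ptbp2* (0.14) and *Elavl2* (0.26) were above 0. The same 4 genes were higher under both, and 49.1% of all genes were higher with centring on the core spliceosome genes.

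Pan-neuronal markers were higher at E14.5 for 22 of 26 genes, with a median log2 ratio of 1.11. *Elavl3* went from 61.6 FPKM in E11.5 control to 131 FPKM in E14.5 wildtype ganglia (1.09), *Rbfox1* from 22.9 to 47.3 FPKM (1.04), and *Rbfox2* from 46.2 to 90.5 FPKM (0.97). *Nova2* went from 6.16 to 19.6 FPKM, a log2 ratio of 1.65, and 18 of the 26 markers had a lower one. *Elavl1*, *Elavl2*, *Elavl4*, *Ptbp1*, *Ptbp2*, and *Nova1* had lower log2 ratios than all 26 markers. The 3 neuronal *Elavl* genes summed to 300.3 FPKM at E11.5 and 316.9 FPKM at E14.5, but *Elavl3* went from 18.4% to 38.4% of the family and *Elavl4* from 34.3% to 19.8%.

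*Ptbp1* had the lowest log2 ratio between the stages (-1.16), at 102 FPKM in E11.5 control and 45.6 FPKM in E14.5 wildtype ganglia. All 19 cell cycle genes were also lower, with a median of -1.23. The ratio of *Ptbp2* to *Ptbp1* was 1.94 times higher at E14.5 (1.11 and 2.15), and that of *Nova2* to *Nova1* was 5.24 times higher (0.695 and 3.64).

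Genes with copies elsewhere in the genome behaved differently between the tables. Among genes of the SR protein, hnRNP, and core spliceosome lists, 20 had 10% or more of their 90-base stretches elsewhere in mm9, and all 20 were lower in the E14.5 wildtype column (median -1.98). Of the 35 genes of these lists with no such stretch, 2 were lower and 2 were higher (median -0.17). *Hnrnpa3*, with 81.8% of its stretches elsewhere and chosen after its value was seen, was at 222 FPKM in E11.5 control and 11.3 FPKM in E14.5 wildtype ganglia. Within a stage the gap was smaller, and the 20 genes had the higher median. The medians were -0.16 for the 20 genes and -0.35 for the 35 genes at E11.5, and 0.11 and 0.04 at E14.5. Apart from *Ptbp1*, the *Elavl*, *Nova*, *Ptbp*, and *Rbfox* genes had no stretch elsewhere. *Ptbp1* had 3.08%, and 8 genes of the lists with some but under 10% had log2 ratios from -1.26 to 0.37 (median -0.32). Of these 8 genes 4 were lower and 0 were higher, where 12.7% of all genes were lower and 29.7% higher. The part of such copies in the *Ptbp1* value was not tested. The 11 cell cycle genes without copies were all lower, with a median of -1.22.

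The other RNA-binding genes of neurons gave 9 lower and 2 higher of 35 at E11.5 (median -0.27), 0 and 0 at E14.5 (median 0.03), and 5 and 13 between the stages (median 0.21). Of all genes 12.9% were lower and 18.9% higher at E11.5, and 2.12% and 2.89% at E14.5. Between the stages the 35 genes gave 14.3% lower and 37.1% higher, beside 12.7% and 29.7% of all genes. *Srrm3*, which encodes an activator of neuronal microexons, was at 9.60 FPKM in control and 2.65 FPKM in CKO ganglia at E11.5 (-1.82). *Srrm4*, its close relative, was at 11.3 and 5.42 FPKM (-1.04). *Msi1*, a translational regulator of neural progenitors, was at 33.2 and 10.3 FPKM (-1.67).

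The CELF genes *Celf4* (20.0 and 9.75 FPKM) and *Celf5* (6.60 and 3.20 FPKM), whose products bind GU-rich RNA, were 1.03 and 1.02 lower on the log2 scale. *Raver2*, whose product is a partner of Ptbp1, went the other way, from 3.74 FPKM in control to 6.86 FPKM in CKO ganglia (0.86). At E14.5 these 6 genes were not called. The wildtype and hypomorphic levels were 21.4 and 17.5 FPKM for *Srrm3*, 25.5 and 25.1 FPKM for *Srrm4*, and 54.8 and 48.7 FPKM for *Msi1*.

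Among general splicing factors at E11.5, 5 of 13 SR protein genes (median -0.47) and 7 of 20 hnRNP genes (median -0.44) were lower, where 12.9% of all genes were. Of 32 core spliceosome genes 1 was lower, or 3.12%, which is below that share (median -0.18), and 0 genes of these lists were higher. *Hnrnpa2b1* was at 559 and 379 FPKM and *Hnrnpab* at 412 and 347 FPKM in control and CKO ganglia. None of these 65 genes was called at E14.5, where 2.12% of all genes were lower and 2.89% higher. Cell cycle genes were lower for 11 of 19 at E11.5 (median -0.60), and *Pcna* was at 310.2 and 196 FPKM.

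**Figure D4:**
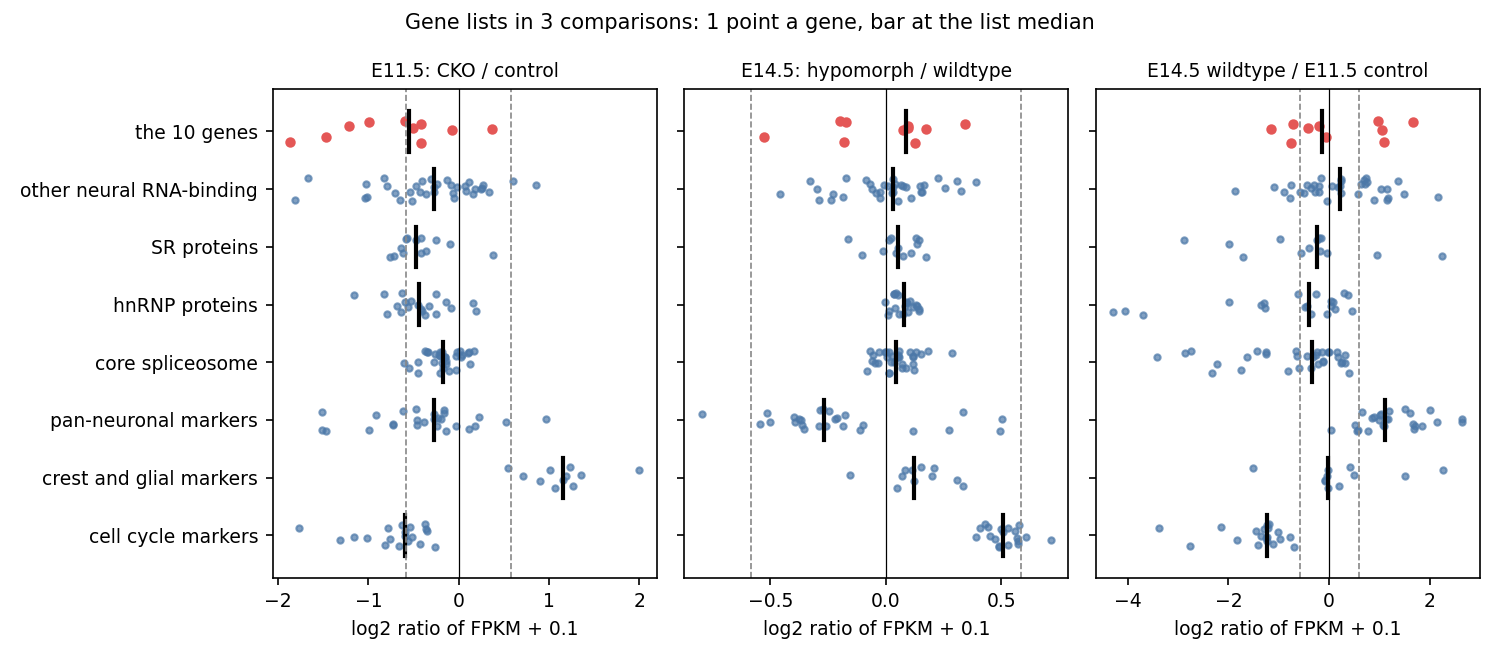
Log2 ratio of FPKM + 0.1 for the 10 genes and for 7 lists in the 3 comparisons, with 1 point a gene, a bar at the median, and 1.5-fold as dashed lines (the horizontal scales differ between panels). At E11.5 the medians of the 10 genes (-0.55) and of the SR protein, hnRNP, and cell cycle genes lie left of 0, with *Ptbp1* (0.37) right of it, and all crest and glial markers lie right of it (median 1.15).

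Genes upstream and downstream of these proteins were read from lists of the same kind. *Rest*, which represses neuronal genes outside neurons, was at 3.46 FPKM in both control and CKO ganglia at E11.5. It was at 3.04 and 3.43 FPKM in wildtype and hypomorphic ganglia at E14.5. Of 5 genes of its circuit 1 (20%) was higher at E11.5, near the 18.9% of all genes, and 0 were called at E14.5. The epithelial splicing regulators *Esrp1* and *Esrp2* were not listed in either table. Of 7 transcripts known to be bound by Hu proteins, 2 were lower and 1 was higher at E11.5, 0 were called at E14.5, and 4 were higher between the stages. Beside them, 12.9% of all genes were lower and 18.9% higher at E11.5, and 29.7% were higher between the stages. *Gap43*, a growth cone protein whose mRNA HuD stabilizes, was at 585 FPKM in control and 425 FPKM in CKO ganglia, and at 1235 and 962 FPKM in wildtype and hypomorphic ganglia. *Ache*, the acetylcholinesterase gene, was at 8.83 and 30.04 FPKM at E11.5 (1.75), and *Mycn* was at 56.0 and 30.3 FPKM (-0.88).

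The genes nearest in pattern were sought among 8568 genes with at least 5 FPKM in all 4 columns, by the distance between log2 values centred on each gene, where 0 means the same pattern. For *Elavl3* they were *Cplx1*, a complexin of synaptic vesicle release (distance 0.285), *Leng8* (0.325), and *Mir5121* (0.325). *Cplx1* was at 51.4 FPKM in E11.5 control, 11.9 FPKM in E11.5 CKO, 109 FPKM in E14.5 wildtype, and 76.9 FPKM in E14.5 hypomorphic ganglia. For *Elavl2* they were *Gm7120* (0.132), the noncoding RNA gene *Rian* (0.284), and *Insm1*, a zinc finger factor of neuroendocrine and neuronal precursors (0.319). *Ptbp2* lay nearest to *Rbmx*, which encodes hnRNP G (0.116), *Maoa*, which encodes monoamine oxidase A (0.118), and *Whsc1* (0.123).

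*Elavl4* had closer neighbours, with *Top1*, the topoisomerase I gene, at 0.020, *Zfhx4* at 0.030, and *BC005561* at 0.041. For *Ptbp1* they were *Rai14* (0.029), *Arhgap5* (0.078), and *Mtap* (0.1004). The distances rest on 4 values a gene, and no gene was among the 3 nearest of more than 1 of these 5 genes.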

How the data were processed

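Mouse sympathetic ganglia were profiled by RNA-seq in 8 libraries, 2 per genotype and stage. According to the study's methods, mRNA was selected with oligo(dT) beads, made into libraries with the SMARTer kit, sequenced as paired 90-base reads, aligned to mm9 with TopHat, and quantified with cuffdiff. The submitters' processing notes instead name Bowtie, TopHat 1.3.1, Cuffdiff 1.3.0, and the fly build dm3, and which versions made which table is not settled in the sources used here. FPKM were estimated by the authors, 1 value per gene and genotype from both libraries, and genes under 1 FPKM in both genotypes are not listed. The deposited log2 fold changes and p-values are the authors' own comparisons and were not used. Of the symbols, 22 at E11.5 and 23 at E14.5 had been turned into dates.

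Log2 ratios were computed from FPKM + 0.1, and 1.5-fold was counted, with no test, since each group had 1 value. Python 3.11.15 with numpy 2.4.6, pandas 2.3.3, and matplotlib 3.10.9 was used, and the counting steps were tested on simulated data. Depth per library is unknown. Sequences came from mm9, its GENCODE annotation, and RefSeq. Genes besides the 10 were named when they were past 1.5-fold at 5 FPKM or more in a pathway list (up to 8 a comparison), the most abundant of a list, or nearest in pattern, and *Hbb-y*, *Hnrnpa3*, *Rest*, *Esrp1*, and *Esrp2* are outside this rule. The 10 genes and all lists were chosen with earlier results of these data known. The alternatives were a pseudocount of 1 or 0.01, an FPKM of 5 or more, a fold of 2 or 1.2, and 4 other scalings, of which centring on core spliceosome genes without genomic copies was chosen after seeing the data.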

Additional observations from a re-analysis of the deposited data

How the results depend on the processing

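The count of the 10 genes that were lower in CKO ganglia at E11.5 was 5, and it was 8 when the columns were rescaled without erythroid genes, with *Elavl1*, *Elavl4*, and *Nova1* added. It was 3 at a fold of 2 (*Elavl2*, *Elavl3*, and *Ptbp2*) and 8 at a fold of 1.2, where 1 gene, *Ptbp1*, was higher. Of all genes 12.9% were lower in the main setting and 22.5% after that rescaling. At a fold of 2, 4.83% were lower, and at a fold of 1.2, 27.5% were lower and 34.8% higher. *Rbfox2* was not called with a pseudocount of 1 or with centring on core spliceosome genes. At E14.5 a fold of 1.2 gave 1 lower gene (*Elavl2*) and 1 higher gene (*Nova1*) in place of 0 and 0. At that fold 9.01% of all genes were lower and 12.2% higher, which is near the share of the 10 genes. Between the stages 1 gene was lower (*Ptbp1*) with centring on all core spliceosome genes and 1 at a fold of 2, in place of 3. Of all genes 7.57% and 6.77% were lower in these settings. With centring on the median of all genes 4 were lower, with *Elavl1* added, where 19.5% of all genes were lower. With centring on the core spliceosome genes without genomic copies, 2 were lower (*Elavl4* and *Ptbp1*) and 4 higher. Of all genes 10.2% were lower and 36.9% higher in that setting. In all, 46 recomputed counts stayed within 1.5 times of the reported ones and 8 did not. Many of the 46 were counts of 0 that stayed at 0, and the filter of 5 FPKM kept all 10 genes. The tally is therefore no measure of how stable the other counts were. Each scaling moved all genes of a comparison by about the same small amount, so log2 ratios past 1.5-fold could not change sign. Smaller ones did for *Rbfox1* at E11.5 (-0.31 to 0.13). Between the stages they did for *Elavl2* (-0.31 to 0.26) and *Ptbp2* (-0.44 to 0.14). The log2 ratios at E11.5 ranged over the scalings and pseudocounts from -2.10 to -1.66 for *Elavl3*, from -1.70 to -1.26 for *Elavl2*, and from -1.45 to -1.01 for *Ptbp2*. No paired analysis was possible because the deposited columns combine the libraries of a genotype and carry no replicate numbers, and for the same reason no library could be left out in turn. Without depths, no counting error can be given.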
